A study of Mus musculus with 24 samples.

Results

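Total RNA and newly made RNA were compared within leptotene spermatocytes, the cells of early meiotic prophase in the mouse testis. The comparison takes the 4 total RNA libraries and the 4 nascent RNA libraries labelled leptotene, which are 8 of the 24 libraries of the study. A gene was tested when it reached at least 1 FPKM, after each library was rescaled to the same sum, in at least 2 libraries of each assay. This left 10617 of 52231 rows of the tables. Another 2378 rows reached that level in total RNA only and 682 in nascent RNA only, so their difference was not tested, and 38554 reached it in neither.

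All animals were wild-type NMRI mice whose spermatogenesis had been synchronised with WIN18,446, an inhibitor of retinoic acid synthesis, and retinoic acid. At 24 days after birth each received 2 mg of 5-ethynyl uridine (EU), a uridine analogue that cells build into RNA as it is made, and cells were sorted by ploidy 3 hours later. Nascent RNA is the EU-labelled RNA, so it holds RNA made within those hours, and total RNA also holds what was made before. Libraries 1 and 2 of each assay came from the same animal and were averaged, which gives 3 animals against 3, all synchronised and all given EU. The labels number the animals of both assays differently (IND1, IND4 and IND3 for total RNA, and IND5, IND8 and IND7 for nascent RNA), so assay and animal cannot be told apart unless these are the same mice. Per the labels' protocols, ribosomal RNA was removed before the total libraries were made and kept in the nascent ones. Both tables are scaled within a library, so a difference between assays is one of composition: a gene higher in total RNA takes a larger share of total RNA than of nascent RNA, and the amount of RNA per cell was not measured. In sorted bulk samples, fewer cells of a type and less RNA per cell cannot be told apart.

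The level of an RNA reflects both how fast it is made and how long it lasts. An RNA that is stable and was mostly made earlier takes a larger share of total RNA, and one that turns over within hours takes a larger share of newly made RNA. Leptotene is the stage at which chromosome axes form and programmed DNA breaks are made, and male germ cells at this stage hold RNA made before meiosis. RNAs of ribosomes, histones and small structured ribonucleoproteins are textbook examples of abundant RNAs with their own routes of synthesis and processing.

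By the ranks of their genes, library 2 and library 3 of both assays went against their labels. The library labelled leptotene 2 ranked genes like pachytene libraries, with Spearman correlations of 0.855 to 0.889 in total RNA and 0.755 to 0.882 in nascent RNA. The other leptotene libraries correlated with pachytene at 0.322 to 0.454 and 0.337 to 0.524. Summed over 8 pachytene marker genes it held 1180 rescaled FPKM in total RNA, against 18.1 to 42.1 in the other 3 libraries, and 374 in nascent RNA, against 2.74 to 3.95. Piwil1, a PIWI protein of pachytene cells, was at 106 in total library 2 and at 1.56 to 3.97 in the others. The library labelled leptotene 3 correlated with spermatogonia at 0.759 to 0.815 in total RNA and 0.817 to 0.882 in nascent RNA, while libraries 1 and 4 correlated best with each other (0.839 and 0.881) or with the single preleptotene library (0.831 to 0.842 and 0.887 to 0.893). Summed over 7 spermatogonia markers, library 3 held 75.7 in total RNA, against 47.5 and 68.8 in libraries 1 and 4. In nascent RNA it held 79.8, against 35.6 and 25.5, so by these markers it stood apart mainly in nascent RNA. The 8 leptotene markers summed to 68.7 to 163 in total RNA and to 118 to 248 in nascent RNA. Sums of somatic markers were low: 4.2 to 10.4 (total RNA) and 1.72 to 3.12 (nascent RNA) for 5 Sertoli genes, 1.61 to 15.6 and 1.76 to 2.7 for 5 Leydig genes, 1.04 to 5.99 and 0.484 to 2.61 for 4 peritubular and vascular genes, and 0.712 to 3.15 and 0.263 to 1.23 for 4 blood and macrophage genes. No marker of these lists was at 0 in all 8 libraries. Insl3, which defines Leydig cells, was at 11.7 in total library 3 and at 0 in the other 7. Because library 2 and library 3 stand apart, counts are also given without library 2 and without both. The deposited tables used here hold no read totals. From 11474 to 13483 genes reached 1 rescaled FPKM in total libraries and 10225 to 11270 in nascent libraries.

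Of the 10617 genes, 187 (1.76%) took a larger share of total RNA and 28 (0.264%) a larger share of nascent RNA, at a Benjamini-Hochberg adjusted p under 0.05 in limma. The genes higher in total RNA were led by small structured RNAs, ribosomal protein genes and their pseudogenes, replication histones and respiratory chain genes. Those lower in total RNA were led by 6 rows annotated as microRNA, 2 copies of mitochondrial genes and 16 protein-coding genes. Differences are given as total minus nascent on the scale of log2(rescaled FPKM + 1), followed by the standard error. This scale understates the difference of genes at low levels. The p-values of this comparison measure the spread between these samples, 3 animals in each assay where all libraries are used. Those of the stage comparisons below rest on a spread shared by leptotene, spermatogonia and pachytene animals. Without library 2 of either assay the counts were 219 (2.23%) and 35 (0.356%) of 9840 genes, and 169 of the 215 called genes were called in both fits. Without library 2 and library 3 they were 759 (8.73%) and 432 (4.97%) of 8699, from 2 animals in each assay. A block by library number assumes that equal numbers pair the assays, which the labels do not state. Its p-values measure how the difference varies between these assumed pairs. With this block 612 (5.76%) were higher and 94 (0.885%) lower, among them all 215.

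The scale of the comparison mattered for the balance of directions. When libraries were set to the same sum over protein-coding rows, 47 (0.427%) genes were higher and 28 (0.254%) lower in total RNA, so 62.7% of called genes were higher, against 87.0% with the common sum. With scaling to the median gene the counts were 80 and 29 (73.4% higher). The median difference of all tested genes was 0.11 with the common sum, -0.12 after protein-coding scaling, -0.07 after median scaling and 0.27 in the values as deposited. Every one of the 215 called genes had the same sign in each of the 23 alternatives in which it was tested. The alternatives reuse the libraries from which these genes were called, so a shared sign is not independent support. With 1 library left out at a time the count of called genes ranged from 4 (without total library 4) to 286 (without total library 2). It was 92 without nascent library 1, 124 without nascent library 3, 27 without nascent library 4, 41 without total library 1 and 44 without total library 3. Leaving out library 3 or 4 removes an animal, while leaving out library 1 or 2 does not, because libraries 1 and 2 were averaged. Without library 1 their animal is represented by library 2 alone. These counts thus mix the loss of an animal with the weight of a library.

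**Figure D1:**
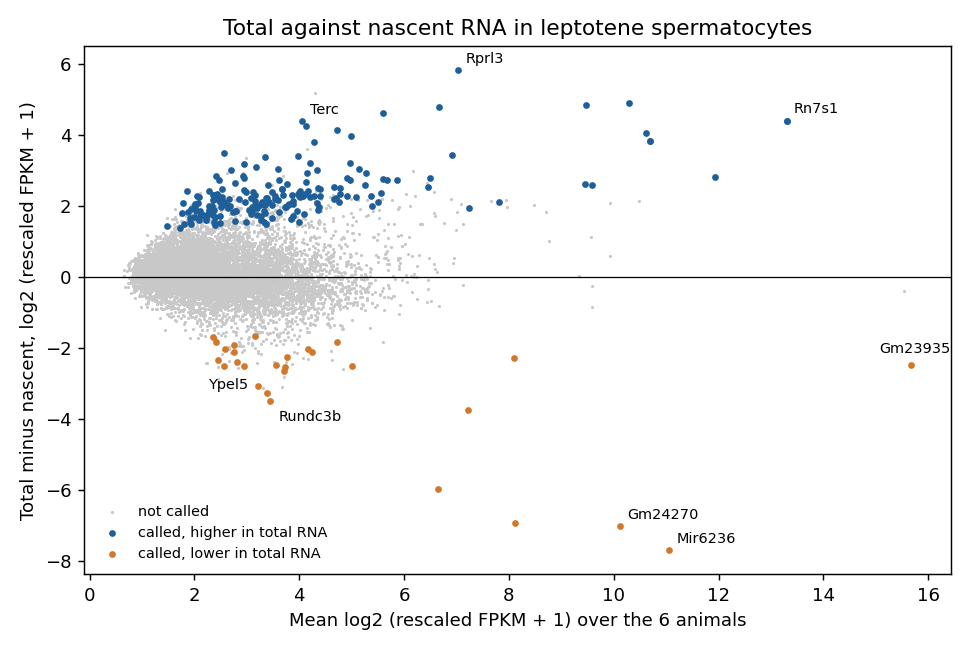
Each point is a gene, with its mean level over the 6 animals on the x axis and total minus nascent on the y axis, both on the log2(rescaled FPKM + 1) scale. Blue points (187) were higher and orange points (28) lower in total RNA at adjusted p under 0.05. The farthest points above are structured RNAs such as Rprl3 (5.84), and the farthest below are rows annotated as microRNA such as Mir6236 (-7.70).

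A few kinds of RNA made up most of the summed FPKM, and they differed between the assays. Small structured RNAs took 44.6%, 19.8%, 39.4% and 39.3% of total libraries 1 to 4, and 0.918%, 1.4%, 2.41% and 2.85% of nascent libraries 1 to 4. Every total library lay above every nascent library, and total library 2 was the lowest of its assay. Over animals the means were 37.0% ± 4.12 (SD, n = 3) and 2.14% ± 0.879 (SD, n = 3), with an exact two-sided permutation p of 0.1, the smallest that 3 animals against 3 allow. Rows annotated as microRNA went the other way, with 7.62%, 10.6%, 8.19% and 4.84% of total libraries and 51.6%, 57.3%, 53.7% and 55.3% of nascent libraries (7.38% ± 2.25 and 54.5% ± 0.776, n = 3 each, exact permutation p 0.1). The assays did not overlap.

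The row of the 45S ribosomal RNA precursor, merged in the tables with the predicted gene Gm26917, took 12.1%, 6.26%, 13.6% and 16.8% of total libraries and 16.2%, 13.3%, 17.5% and 17.4% of nascent libraries. These overlap (13.2% ± 3.84 and 16.5% ± 1.58, n = 3 each, exact permutation p 0.2), and the row was not called (-0.39 ± 0.44, adjusted p 0.746). The protocols depleted ribosomal RNA from total RNA alone, so this row does not compare rRNA synthesis with its store. Protein-coding rows took 21.9%, 44.6%, 23.9% and 24.3% of total libraries and 24.4%, 21.7%, 20.4% and 18.2% of nascent libraries. Only total library 2 stood well above the rest. Spike-in rows, dropped before rescaling, held 3.37% to 8.19% of deposited FPKM in total libraries and 5.01% to 69.2% in nascent libraries (exact permutation p 0.2).

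**Figure D2:**
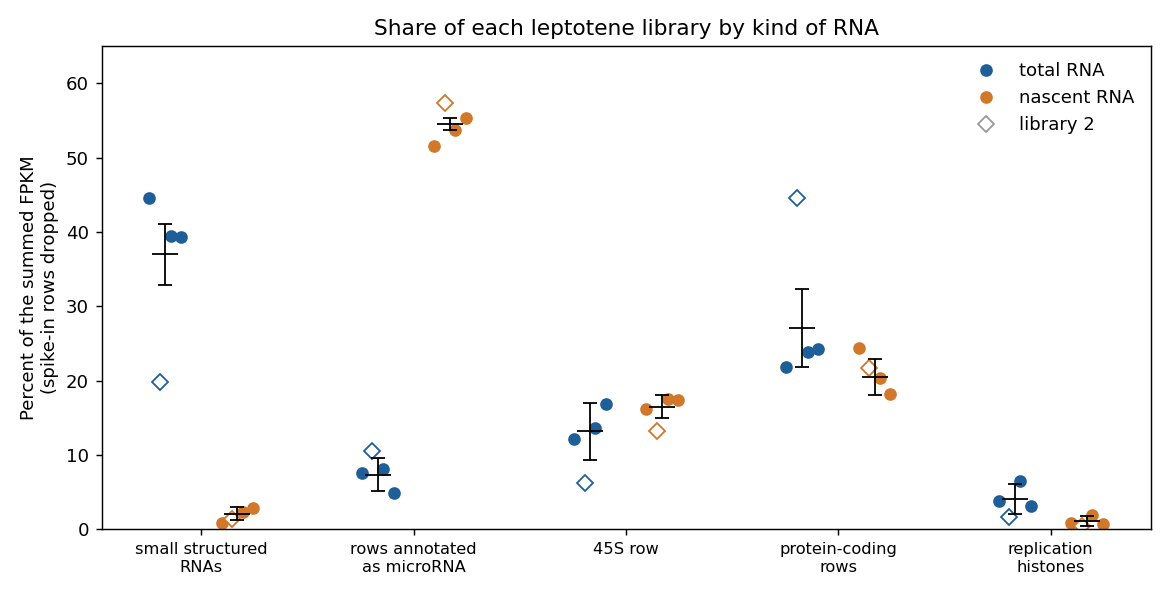
Percent of the summed FPKM without spike-ins (y axis) taken by 5 kinds of RNA in each leptotene library. Filled circles are libraries 1, 3 and 4, open diamonds are library 2, and lines with bars are the mean ± SD of 3 animals. Small structured RNAs hold 19.8% to 44.6% of total libraries, 0.918% to 2.85% of nascent ones, and rows annotated as microRNA hold 4.84% to 10.6% and 51.6% to 57.3%.

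Small structured RNAs had the largest excess in total RNA. Of 12 listed, 9 were tested and 8 were higher in total RNA, none lower, with a median difference of 4.4 (4.69 without library 2). With protein-coding scaling 5 of 9 were called, with a median of 4.05. The median of all genes was 0.11 with all libraries. Rn7s1 and Rn7s2 encode 7SL RNA, the scaffold of the signal recognition particle that brings ribosomes to the endoplasmic reticulum. Their transcripts in GENCODE M21 were identical over their whole length. The authors' counting could therefore split reads between them in any way, and the 2 rows give 1 observation.

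Rn7s1 was at 61900, 24700, 50700 and 50900 rescaled FPKM in total libraries 1 to 4 and at 1080, 1330, 2930 and 2970 in nascent libraries 1 to 4. The lowest total library was still far above the highest nascent one. The difference was 4.41 ± 0.48 (21.3-fold, adjusted p 0.00968). The related row Rn7s6 differed by 4.86 ± 0.59 (adjusted p 0.0118). EU is built in where the RNA has U (T in the gene), and T made up 18% of the 7SL transcript, while the median over the 8067 protein-coding genes tested was 25.2%. The 10 structured RNAs and small Cajal body RNAs examined held 16.0% (Rpph1) to 28.3% (Scarna10) T, and both of these were higher in total RNA. Gm23935, a row lower in total RNA that is described below, held 15.8% T. The part of T content in these differences was not tested.

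The RNA subunits of 2 processing enzymes were also far higher in total RNA. Rpph1, the RNA of RNase P, which trims the leader of tRNA precursors, was at 5730, 3840, 8250 and 8390 in total and at 91.3, 165, 242 and 400 in nascent libraries. It differed by 4.91 ± 0.51 (30-fold, adjusted p 0.00941). It lies inside Ccnb1ip1 on the same strand. Rmrp, the RNA of RNase MRP, which cuts the ribosomal RNA precursor, was at 8120, 2840, 7190 and 7570 and at 173, 241, 345 and 779 (4.07 ± 0.54, 16.8-fold, adjusted p 0.0142, and 0.0525 with protein-coding scaling). Both assays were clearly apart for each of these RNAs, with library 2 the lowest of the total libraries.

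Terc, the template RNA of telomerase and a product of RNA polymerase II, was at 90.1, 39.1, 65.6 and 112 in total and at 1.4, 3.1, 1.97 and 4.14 in nascent libraries (4.4 ± 0.38, 21.2-fold, adjusted p 0.0073). Rprl3, an RNase P RNA-like gene, had the largest difference of all called genes higher in total RNA, with 703, 552, 1340 and 1160 against 2.07, 9.43, 32.8 and 25.9 (5.84 ± 0.69, 57.4-fold, adjusted p 0.0118). Rn7sk, the RNA that holds the elongation kinase P-TEFb inactive, was nearer to parity, with 8930, 8810, 12000 and 10800 against 607, 1520, 1470 and 2260 (2.83 ± 0.44, 7.1-fold, adjusted p 0.0234, and 0.113 with protein-coding scaling). In each case the total libraries lay above the nascent ones. Rprl2 was also higher (2.08 ± 0.38, adjusted p 0.039), while the Y RNA Rny3 was not called (-0.15 ± 0.53, adjusted p 0.927). Vaultrc5, Rny1 and Rprl1 did not reach the level for testing. In this list 1 member reached it in nascent RNA only, 0 in total RNA only and 2 in neither assay.

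Small nucleolar and Cajal body RNAs, which guide modification of ribosomal and spliceosomal RNAs, were higher in total RNA in 7 of 38 tested, none lower, with a median of 1.03 (13 of 38 with the block, 9 of 37 without library 2, 3 of 40 with protein-coding scaling). Another 23 reached the level in total RNA only and 1 in nascent RNA only. Scarna10 was at 419, 399, 535 and 689 in total and at 2.65, 22.2, 16.9 and 41.1 in nascent libraries (4.80 ± 0.56, adjusted p 0.0118). Scarna2, which has its own promoter, was at 418, 298, 347 and 512 and at 25.3, 32.6, 45.9 and 33.7 (3.45 ± 0.35, adjusted p 0.00941). Scarna6 differed by 3.97 ± 0.42 (adjusted p 0.00941). Scarna10 and Scarna6 lie inside Ncapd2 and Atg16l1 on the same strand, so intron reads of these hosts in nascent RNA could count toward them. The median of 7 tested snoRNA host genes was 1.02, and none was called (2 higher with the block).

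The rows with the largest excess in nascent RNA carry microRNA annotations. Of 108 tested rows of the miRNA biotype, 1 was higher and 6 were lower in total RNA. Of those lower, 5 are predicted genes of nearly the same sequence and the other is Mir6236. Their sequences are shown because Gm23935 alone took 37.9% of nascent FPKM, with capitals at the substituted base (positions counted from 1 at the 5′ end, Gm23935 as the reference):

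Gm23935: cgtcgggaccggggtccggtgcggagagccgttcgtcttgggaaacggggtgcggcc

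Gm24187: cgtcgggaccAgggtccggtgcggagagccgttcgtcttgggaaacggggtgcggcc

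Gm25911: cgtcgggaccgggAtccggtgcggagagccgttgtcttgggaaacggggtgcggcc

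Gm24187 carries G11A, and Gm25911 carries G14A and lacks the base at position 34. Gm24270 and Gm24245 are identical to Gm23935 over all 57 bases, so reads from 1 RNA could be assigned to any of the 3. They lie at chr16:11144125-11144181 (Gm23935, plus strand, opposite Zc3h7a), chr9:56223715-56223771 (Gm24270, minus strand, inside Peak1 on its strand) and chr4:139338304-139338360 (Gm24245, plus strand). Gm24187 is at chr13:9834469-9834525 and Gm25911 at chr1:167340369-167340424, both on the minus strand.

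Gm23935 alone was at 24200, 32300, 25600 and 15000 rescaled FPKM in total libraries and at 137000, 122000, 111000 and 135000 in nascent libraries. It took 6.96% ± 2.12 of total and 37.9% ± 3.86 of nascent FPKM (SD, n = 3 each, exact permutation p 0.1). The assays did not overlap, and the difference was -2.49 ± 0.44 (5.63-fold lower in total RNA, adjusted p 0.0342, and 0.0841 with protein-coding scaling). Its identical copy Gm24270 was at 35.4, 256, 201 and 46.7 in total and at 22800, 9500, 10900 and 12900 in nascent libraries (-7.02 ± 0.54, adjusted p 0.00607). The copies of 1 sequence thus differed by unequal factors, 5.63-fold for Gm23935 and 130-fold for Gm24270. Gm24187 (-6.93 ± 0.57) and Gm25911 (-5.97 ± 0.48) were also called at adjusted p 0.00607, and Gm24245 at 0.0433 (-2.5 ± 0.48), or 0.0604 without library 2.

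Mir6236, at chr9:110281287-110281409 on the plus strand, was at 17.8, 454, 488 and 70.8 in total and at 7300, 53500, 50700 and 29100 in nascent libraries. Libraries varied widely within each assay, and the assays did not overlap. The difference was -7.70 ± 0.75 (208-fold lower in total RNA, adjusted p 0.00941), the largest of any called gene. The mature microRNA in RefSeq (GRCm38.p6, chr9:110281353-110281371, plus strand) is printed with its seed, bases 2 to 8, in capitals because the row leads the list:

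mmu-miR-6236: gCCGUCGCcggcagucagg

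The libraries were not made by a small RNA method, and nascent libraries kept their ribosomal RNA. Whether reads of these 6 rows come from mature microRNAs, from their precursors or from another RNA was not tested. The longest exact run that Gm23935 or the Mir6236 hairpin shares with the annotated Gm26917 transcript (3329 bases) was 10 bases. Only that transcript was searched in this way, so the run does not show whether these reads come from ribosomal RNA. Among 79 rows of named microRNA genes that were tested, Mir703 was higher in total RNA (2.11 ± 0.32, adjusted p 0.0217) and Mir6236 lower, with a median of 0.34 (6 higher and 2 lower with the block).

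All 37 rows of the mitochondrial genome were at 0 in every library, yet 2 nuclear copies of mitochondrial genes were among the rows higher in nascent RNA. Gm10222, at chr1:24612407-24612700 on the minus strand, is identical to mt-Nd4l, a subunit of respiratory complex I. It was at 56.7, 17, 88.2 and 22.3 in total and at 678, 271, 728 and 522 in nascent libraries (-3.75 ± 0.53, adjusted p 0.0188). Gm28439, at chr1:24611535-24612410 on the same strand, is identical to mt-Nd4 over its length and was at 115, 47.9, 169 and 150 against 780, 313, 784 and 563 (-2.27 ± 0.43, adjusted p 0.0414). The assays did not overlap for either row. The rows overlap each other, and reads of mitochondrial RNA cannot be told apart from reads of these copies.

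Replication-dependent histone genes, which make the histones of S phase from short messages without a poly(A) tail, were all more abundant in total RNA by their point estimates. The list also held Hist1h1t, the testis linker histone, which is counted among the pachytene genes below as well. Of 59 tested, 12 were called higher and none lower, with differences from 0.48 to 5.19 and a median of 2.07. Without library 2 the count was 30 of 59 (median 2.16), with the block 48 of 59, and without library 2 and library 3 53 of 56. With protein-coding scaling it was 2 of 61, and the median was still 1.74. Hist1h3e, an H3 gene, was at 60.1, 11.5, 22.7 and 58.1 in total and at 8.51, 2.37, 4.15 and 4.73 in nascent libraries (2.62 ± 0.40, 6.14-fold, adjusted p 0.0228). Hist1h2al, an H2A gene, was at 90, 49.6, 71.2 and 54.5 and at 17.8, 5.4, 12.7 and 9.03 (2.5 ± 0.31, 5.65-fold, adjusted p 0.0118). Total libraries lay above nascent ones for both genes.

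Library 2 stood apart for several histone genes. Hist1h2ae was at 36.3, 34.2 and 34.1 in total libraries 1, 3 and 4 and at 4.29 in library 2, which overlapped the nascent values of 3.8, 2.04, 4.3 and 4.78 (2.40 ± 0.43, adjusted p 0.0369, and 0.00702 without library 2). Hist1h2bc behaved the same way (57.0, 7.39, 57.9 and 44.9 against 8.99, 3.01, 10.3 and 5.38). Hist1h2ba, the testis-specific H2B, was the most abundant of the histones printed here, at 1630, 1860, 3480 and 1310 in total and 359, 266, 1050 and 315 in nascent libraries. Its assays did not overlap, but its difference of 2.09 ± 0.60 did not pass the test (adjusted p 0.16, and 0.0153 with the block). As a group, replication histones took 3.78%, 1.69%, 6.45% and 3.2% of total libraries and 0.911%, 0.448%, 1.89% and 0.752% of nascent libraries (4.13% ± 2.02 and 1.11% ± 0.681, n = 3 each, exact permutation p 0.1). The lowest total value, that of library 2, was below the highest nascent value, that of library 3. Histone genes are near-identical copies of each other, so the counts of single members are uncertain.

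Ribosomal protein genes were also higher in total RNA. There were 78, of which 61 were tested, and 21 were higher and none lower, with a median of 1.62 and 59 of 61 above 0. The other members were mostly those of low nascent level: 15 reached the level in total RNA only, 2 in neither assay and none in nascent RNA only. The count was 22 of 56 without library 2 (median 1.56), 40 of 61 with the block, 27 of 39 without library 2 and library 3, and 10 of 65 with protein-coding scaling (median 1.34). Every total library lay above every nascent one for 40 of the 61, beside 753 (7.09%) of all 10617 genes tested, while 173 (1.63%) of those lay the other way. Together they took 0.413% ± 0.0352 of total and 0.084% ± 0.0219 of nascent FPKM (SD, n = 3 each, exact permutation p 0.1).

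Rps14 of the small subunit was at 51.3, 90.8, 46.3 and 53.1 in total libraries and at 2.66, 11.6, 6.36 and 3.38 in nascent libraries (3.22 ± 0.34, 9.32-fold, adjusted p 0.00941). It lies opposite Ndst1. Fau, which encodes the ribosomal protein eS30 fused to a ubiquitin-like protein, was at 11.5, 19, 31.9 and 23.4 and at 0.698, 0.5, 3.42 and 1.35 (3.20 ± 0.46, adjusted p 0.019). Neither gene overlapped between assays.

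Rplp0, the base of the ribosomal stalk, was the most abundant of the members printed here, at 89.5, 177, 88.8 and 105 in total and at 14.1, 25.7, 11.7 and 9.58 in nascent libraries (2.93 ± 0.36, 7.64-fold, adjusted p 0.0118). Library 2 was highest in both assays. Rpl37 (2.86 ± 0.36, adjusted p 0.0119) and the other stalk proteins Rplp1 and Rplp2 were also called. Members of both ribosomal subunits were among the 21. Total RNA also had more of the ribosomal protein pseudogenes. Of 728 processed pseudogenes tested, 71 were higher and 1 lower in total RNA (142 and 13 with the block, 63 and 1 of 647 without library 2, and 14 and 1 of 768 with protein-coding scaling). Of the 47 with predicted-gene names among those higher, 45 matched a transcript at 95% identity or more over at least 80% of their length, and for 37 of these it was a ribosomal protein transcript. Reads of the parent gene could be assigned to such copies, so these rows are not independent of the genes above.

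Translation factors showed a smaller excess. Of 34 tested, 3 were higher and none lower, with a median of 0.75 (8 with the block, 2 without library 2, 1 with protein-coding scaling). Eif3h, a subunit of the initiation factor eIF3, was at 12.7, 32.3, 17.7 and 18.6 in total and at 1.72, 2.71, 4.4 and 2.08 in nascent libraries (2.40 ± 0.33, adjusted p 0.018). Tpt1, an abundant growth-related protein whose message has a terminal pyrimidine tract, was at 18.4, 21.1, 21.6 and 24.2 and at 3.58, 7.56, 4.2 and 4.23 (2.04 ± 0.29, adjusted p 0.0188). Eif3d differed by 1.49 ± 0.29 (adjusted p 0.047). The assays did not overlap for any of the 3.

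Nuclear genes of the respiratory chain were higher in total RNA in 8 of 55 tested, none lower, with a median of 1.19 and 54 of 55 above 0. A further 13 of the 74 in the tables reached the level in total RNA only. The count was 24 with the block, 7 of 48 without library 2 (median 0.93) and 0 of 60 with protein-coding scaling (median 0.87). Cox7a2, a subunit of cytochrome c oxidase, was at 9.22, 48.8, 14.8 and 13 in total and at 1.59, 7.43, 2.6 and 0.222 in nascent libraries (2.64 ± 0.52, adjusted p 0.0473). Ndufb9 of complex I was at 10.4, 39.7, 19.9 and 14.1 and at 2.51, 7.55, 3.53 and 4.89 (1.85 ± 0.31, adjusted p 0.028). Library 2 was the highest of both assays for each, and the assays did not overlap. Ndufs5, also of complex I, was at 4.82, 11.8, 8.3 and 5.88 and at 1.73, 2.42, 1.3 and 0.652 (1.86 ± 0.33, adjusted p 0.0368). Ndufa2 had the largest difference of the list but a wide error (3.36 ± 0.68, adjusted p 0.0514, and 0.0177 with the block). It lies opposite Tmco6.

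Of 28 proteasome genes tested, Psmb1 was called, with none lower and a median of 0.69 (6 with the block, 0 with protein-coding scaling). Psmb1, a subunit of the catalytic core particle, was at 24.4, 28.8, 33.0 and 32.0 in total and at 7.51, 8.83, 9.07 and 7.39 in nascent libraries (1.77 ± 0.29, adjusted p 0.0274). It was among the genes with the tightest libraries within each assay. Psma8, the core subunit of meiotic cells, was at 159 in total library 2 and at 2.99 to 7.25 in the others (1.51 ± 0.65, adjusted p 0.359, and 0.0227 with the block).

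Immediate-early genes, whose messages are known as short-lived, also lay on the side of total RNA, although none of the 12 tested was called. Their median was 1.08, with 11 of 12 above 0, and 10 more of the 27 in the tables reached the level in total RNA only. With the block 7 of 12 were called higher: Fos, Jun, Ier2, Ier5, Klf4, Btg2 and Hspa1a. Fos was at 5.22, 2.1, 8.59 and 6.41 in total and at 2.38, 0.464, 2.61 and 1.32 in nascent libraries (1.36 ± 0.39, adjusted p 0.157, and 0.029 with the block). Jun was at 1.61, 11.4, 4.02 and 1.97 and at 0.586, 2.49, 1.16 and 0.59 (1.13 ± 0.34, adjusted p 0.181, and 0.0293 with the block). For both genes each total library was above the nascent library of its number, while the assays overlapped. Egr1 differed by -0.11 ± 0.36 (adjusted p 0.919).

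Genes of meiosis did not show an excess in total RNA. In the list for entry into meiosis, 1 of 14 was called, Tex101, with a median of -0.21 (-0.07 without library 2). Tex101, a surface glycoprotein of germ cells, was at 148, 78.7, 67.1 and 166 in total and at 15.5, 21.3, 21.2 and 19.9 in nascent libraries, which did not overlap (2.37 ± 0.39, adjusted p 0.0277, and 0.0821 with protein-coding scaling). Stra8, the retinoic acid target that drives meiotic entry, was at 25.2, 5.13, 21.3 and 20.8 in total and at 12.1, 4.83, 21.7 and 6.96 in nascent libraries (0.66 ± 0.48, adjusted p 0.609). Its assays overlapped. Meioc, which binds Ythdc2 and is needed to leave the mitotic program, was at 69.5, 67.2, 72.3 and 74.6 in total and at 215, 95.9, 88.6 and 121 in nascent libraries. The total libraries were below all nascent ones, but the difference of -0.68 ± 0.33 did not pass the test (adjusted p 0.421).

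The remaining meiotic lists had negative medians and no gene called. The median was -0.32 for 11 genes of double-strand break formation, -0.38 for 21 genes of strand exchange, -0.42 for 16 genes of the chromosome axis and synaptonemal complex, and -0.44 for 16 factors of the m6A mark. It was -0.02 for 8 genes of telomere attachment. With protein-coding scaling these medians were -0.6, -0.65, -0.76, -0.76 and -0.34. Without library 2 they were -0.37, -0.36, -0.5, -0.51 and -0.15.

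Prdm9, the methyltransferase that places the breaks, was at 23.3, 5.31, 9.88 and 27.5 in total and at 45.8, 18.2, 19.0 and 41.1 in nascent libraries (-0.91 ± 0.47, adjusted p 0.461). Spo11, the enzyme that makes them, was low in both assays, at 5.3, 3.26, 1.04 and 1.99 and at 7.19, 5.47, 1.39 and 5.2 (-0.59 ± 0.52, adjusted p 0.671). Dmc1, the meiotic recombinase, was at 46.2, 10.2, 15.5 and 58.7 and at 93.9, 37.4, 23 and 78 (-0.78 ± 0.61, adjusted p 0.633). Within each library number the nascent value was the higher one for all 3 genes. For Prdm9 and Dmc1, libraries 1 and 4 lay above libraries 2 and 3 in both assays. Meiob, which binds single strands with Spata22, differed by -0.46 ± 0.87 (adjusted p 0.856).

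In the axis list, Sycp1, the transverse filament, was at 10.9, 4.2, 5.18 and 15.3 in total and at 27.6, 15.2, 20.1 and 12.2 in nascent libraries (-0.97 ± 0.44, adjusted p 0.381). Sycp3, of the axial elements, was close to parity, at 9.66, 30, 16 and 11.1 and at 11.2, 21.5, 14.7 and 12.5 (0.03 ± 0.31, adjusted p 0.976). It lies opposite Chpt1. Hormad1, a HORMA-domain axis protein, was at 6.82, 4.71, 7.02 and 1.2 and at 17.2, 11.4, 14.3 and 4.97, higher in nascent RNA within every number (-1.18 ± 0.58, adjusted p 0.43, and 0.0382 with the block). The block also called the cohesin subunit Smc3 lower in total RNA (-1.30, adjusted p 0.0299) and the central element gene Syce3 higher (1.48, adjusted p 0.0307). Smc1b, the meiotic cohesin subunit, differed by -0.42 ± 0.44 (adjusted p 0.724). Rec8 was not tested, since nascent libraries 1, 2 and 4 were at 0.

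Sun1, the inner nuclear membrane protein that ties telomeres to the envelope, was at 3.1, 3.87 and 2.45 in total libraries 1, 3 and 4 and at 23.5, 16.8 and 16.2 in the nascent ones. Library 2 differed, with 17.3 in total and 15.8 in nascent RNA. With all libraries the difference was -1.80 ± 0.39 (adjusted p 0.0645), with the block the adjusted p was 0.0229, and without library 2 the difference was -2.25 (adjusted p 0.0146). Among the m6A factors, Ythdc2 differed by -0.58 ± 0.39 (adjusted p 0.575), and the demethylase Alkbh5 by -1.43 ± 0.67 (adjusted p 0.404), with widely spread libraries.

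Few genes of other germ cell stages were called. Of 33 genes listed for pachytene, 16 were tested, 12 reached the level in total RNA only, and none was called (median 0.83, 0.45 without library 2, where 2 were called higher, and 3 with the block). Hist1h1t, the testis linker histone, was at 110, 1220, 68.3 and 122 in total and at 32.5, 81.8, 16.5 and 25.6 in nascent libraries (2.33 ± 0.66, adjusted p 0.154, 0.0125 with the block, and 0.0414 without library 2, where the difference was 1.97). Each total library was above the nascent library of its number. The piRNA pathway had a median of 0.55 (0.4 without library 2) over 18 genes with none called, and the block called Tdrd6, Fkbp6 and Adad2 higher and Tdrkh lower. Tdrkh, the tudor protein of mitochondria in piRNA processing, was at 5.79, 3.86, 3.35 and 7.07 in total and at 22, 7.1, 9.01 and 15.8 in nascent libraries (-1.17, adjusted p 0.0337 with the block). It overlaps Oaz3 on the same strand. Ybx2, the Y-box protein that holds stored messages, was at 19.9, 311, 20.5 and 20.4 and at 28.9, 124, 15.3 and 18.6 (0.31 ± 0.68, adjusted p 0.875, and 0.00 without library 2).

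Of 30 germ-cell RNA-binding genes none was called, and their median was 0.01 (-0.08 without library 2, -0.14 with protein-coding scaling). With the block 1 was higher. Of 14 genes of differentiating spermatogonia none was called (median 0.58, 12 of 14 above 0, 0.66 without library 2, 2 higher with the block), and Prss50 came closest (1.86 ± 0.39, adjusted p 0.0595, and 0.0346 without library 2). Of 8 genes of undifferentiated spermatogonia none was called (median 0.46, 0.43 without library 2). Of the somatic lists, 4 Sertoli, 1 Leydig, 1 peritubular and 0 blood genes reached the level in both assays, and none was called. The Sertoli median was 0.91, and 1 was higher with the block. Of 3 tested genes of spermatids none was called (median 0.12, and -0.09 with protein-coding scaling).

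Genes of transcription and RNA turnover were spread about 0. None was called among 52 genes of the RNA polymerase II machinery (median 0.11, -0.15 with protein-coding scaling), 51 of mRNA decay (-0.12 and -0.43), 36 of replication and the mitotic cycle (0.22 and -0.08), 31 X-linked housekeeping genes (0.0 and -0.26) and 6 nuclear long noncoding RNAs (-0.23 and -0.52). With the block 1 gene of RNA polymerase II, 1 mitotic and 1 X-linked gene were higher, as was 1 of decay, where 2 were lower. Polr2a, the catalytic subunit of RNA polymerase II, was at 27.6, 36.8, 31.4 and 31.4 in total and at 76.2, 62.4, 58.9 and 36.8 in nascent libraries (-0.73 ± 0.34, adjusted p 0.405). Malat1, a nuclear-retained RNA, was at 165, 94.9, 144 and 148 and at 102, 88.6, 145 and 85.4 (0.39 ± 0.34, adjusted p 0.673). Among 222 zinc finger genes 1 was called, Zfp655, lower in total RNA (-2.11 ± 0.35, adjusted p 0.0282), with a median of 0.04 (-0.2 with protein-coding scaling). With the block 3 were higher and 1 lower. Actb differed by 0.89 ± 0.45 (adjusted p 0.446).

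**Figure D3:**
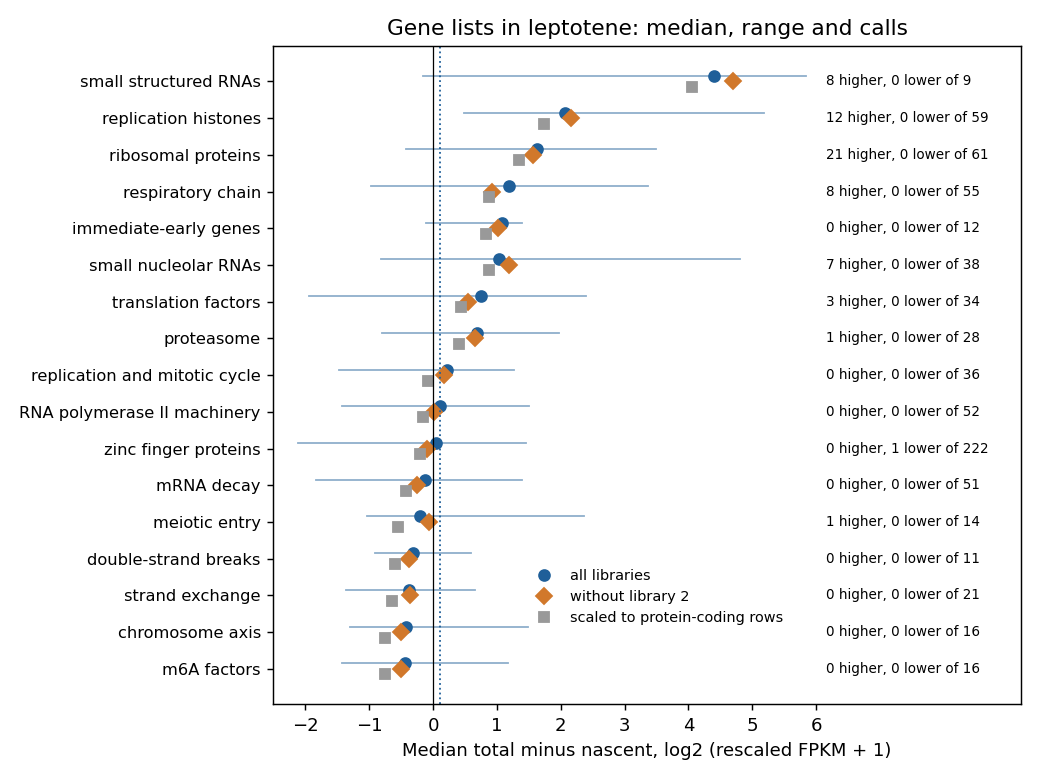
Median total minus nascent of 17 gene lists on the log2(rescaled FPKM + 1) scale (x axis), with all libraries (circles), without library 2 (diamonds) and with protein-coding scaling (squares). Thin lines span the lowest to the highest gene with all libraries, the dotted line is the median of all genes (0.11), and the counts are genes called higher or lower in total RNA. The list medians run from 4.4 for small structured RNAs to -0.44 for m6A factors.

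Protein-coding genes higher in nascent RNA numbered 16. The 8 with the largest difference that were also called without library 2, averaged at least 5 in nascent RNA and did not overlap between the assays are given first. Rundc3b, a RUN-domain protein, led them. It was at 1.61, 7.23, 1.65 and 1.79 in total and at 57.7, 21.7, 29.6 and 42.4 in nascent libraries (-3.49 ± 0.34, 11.2-fold lower in total RNA, adjusted p 0.00941). Library 2 had both the highest total and the lowest nascent value. Ypel5, a member of the yippee-like family, was at 2.03, 3.68, 2.17 and 2.26 and at 51.3, 28.5, 20.7 and 39.4 (-3.26 ± 0.35, 9.6-fold lower, adjusted p 0.00941). Gid4, a substrate receptor of the CTLH ubiquitin ligase, was also called (-2.47 ± 0.46, adjusted p 0.0421), with 17.3 in total library 2 within the nascent range of 15.4 to 36.9. It overlaps Atpaf2.

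Sirt1, an NAD-dependent deacetylase, was at 3.12, 15.7, 2.34 and 4.99 in total and at 53.7, 22.2, 24.1 and 35.2 in nascent libraries (-2.53 ± 0.41, adjusted p 0.0259). Cdv3 was at 4.19, 11, 2.49 and 4.27 and at 55.9, 18.3, 22.7 and 43.6 (-2.64 ± 0.41, adjusted p 0.0234). In both genes library 2 brought the assays closest together. Yrdc, which makes a threonylcarbamoyl modification of tRNA, was even across libraries, at 2.91, 2.52, 1.51 and 2.61 and at 23.1, 19.5, 11.2 and 22.4 (-2.52 ± 0.37, adjusted p 0.0195). It overlaps Maneal on the other strand. Akap11, an anchor of protein kinase A, differed by -2.10 ± 0.34 (adjusted p 0.0263), and Atad5, which unloads PCNA from DNA, by -2.02 ± 0.34 (adjusted p 0.0282). Fkbp5, a co-chaperone of steroid receptors, was at 1.23, 3.18, 1.42 and 2.07 and at 13.1, 5.13, 9.24 and 9.7 (-1.83 ± 0.28, adjusted p 0.0234). All 8 genes were also called with the block and with protein-coding scaling.

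Other coding genes called lower in total RNA depended more on single libraries. Rnf114 was at 2.82, 1.31, 2.0 and 2.71 in total and at 2.6, 27.9, 44.9 and 40.2 in nascent libraries (-3.06 ± 0.57, adjusted p 0.0399, and 0.263 without library 2), so nascent library 1 lay among the total ones. Ncbp2, the small subunit of the nuclear cap-binding complex, was at 8.3, 1.51, 1.24 and 0.416 and at 15.1, 13, 10.6 and 15 (-2.5 ± 0.46, adjusted p 0.04, and 0.154 without library 2). Hnrnph1, a splicing regulator, differed by -1.82 ± 0.36 (adjusted p 0.0495, and 0.0903 without library 2). Ttc14 and Zfp655 were called with and without library 2 (adjusted p 0.0473 and 0.00702 for Ttc14).

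**Figure D4:**
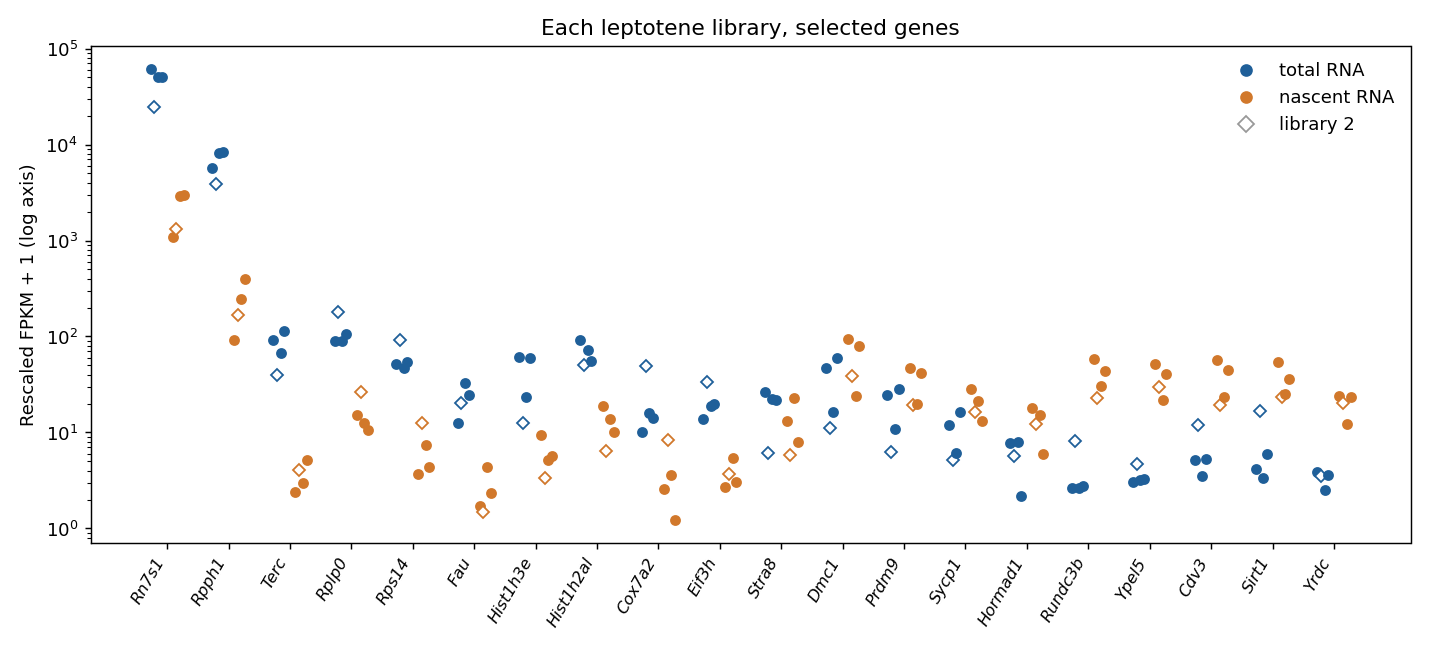
Rescaled FPKM + 1 of 20 genes (log y axis) in each total (blue) and nascent (orange) leptotene library, with library 2 as open diamonds. Genes from Rn7s1 to Eif3h have every total library above every nascent one, those from Stra8 to Hormad1 overlap, and those from Rundc3b to Yrdc have every total library below every nascent one.

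Transcript length went with the difference across protein-coding genes. Genes whose longest annotated transcript has up to 1000 bases had a median difference of 0.92 (365 genes), and the medians were 0.40 for those up to 2000 bases (1224 genes), 0.16 up to 4000 (3244 genes), -0.08 up to 8000 (2724 genes) and -0.23 above that (510 genes). Across the 8067 coding genes Spearman's rho with length was -0.39, with the number of exons -0.21, with the T content of the transcript -0.32 and with its GC content 0.37. These are descriptions across genes, which share libraries and base composition, so no p is given. Without library 2 the correlations with length, T and GC content had the same values over 7588 genes. With protein-coding scaling the medians by length were 0.65, 0.18, -0.09, -0.34 and -0.49.

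Several of the lists above are short. The median transcript length was 524 bases for replication histones, 983 for respiratory chain genes and 1109 for ribosomal protein genes, against 3484 for all coding genes tested, 2010 for axis genes, 3115 for strand exchange genes and 5416 for m6A factors. Within the 365 genes of up to 1000 bases, the 24 ribosomal protein genes had a median of 2.07, the 44 histone genes 2.1 and the 28 respiratory chain genes 1.25. The 269 short genes outside these lists had a median of 0.63, and 11 of them were called higher. The part of length in the differences of these lists was not tested. By chromosome, the median was -0.09 for 288 X-linked coding genes and 0.11 for 7771 autosomal ones. None of the X-linked genes was called, beside 68 higher and 16 lower of the autosomal ones. Without library 2 the medians were close, at -0.04 (283 X-linked genes) and -0.02 (7297 autosomal genes). There 1 X-linked gene was called higher, beside 108 higher and 24 lower autosomal ones.

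**Figure D5:**
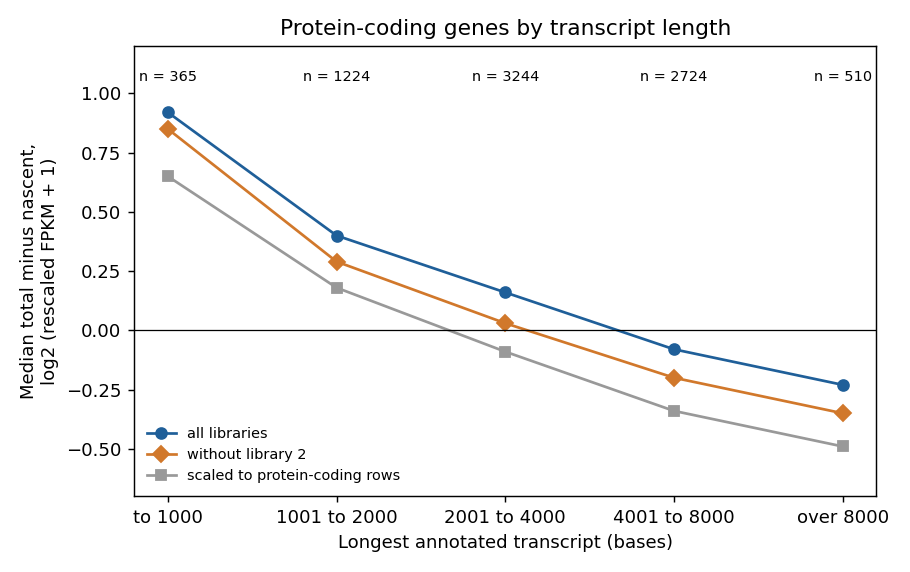
Median total minus nascent on the log2(rescaled FPKM + 1) scale (y axis) of protein-coding genes grouped by the length of their longest annotated transcript (x axis), with the number of genes per group with all libraries. The medians go from 0.92 to -0.23 with all libraries (circles), and also fall with length without library 2 (diamonds) and with protein-coding scaling (squares).

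Whether the excess of total over nascent RNA was larger or smaller in leptotene than in spermatogonia was tested with an assay-by-stage interaction over 22 libraries. Here the level for testing had to be reached in at least 2 libraries of each assay over leptotene, spermatogonia and pachytene together. Genes below that level in leptotene were therefore tested too. Where a gene is near 0 in leptotene, its interaction mostly reflects the difference in the other stage. No gene of 16181 passed (0% in either direction, 517 genes at an unadjusted p under 0.05), nor without library 2 (743 at an unadjusted p under 0.05). The design has 2 animals of spermatogonia in each assay, and some animals gave both stages. Rn7s1 differed by 4.41 in leptotene and by 4.34 in spermatogonia (interaction 0.08 ± 0.58, adjusted p 1.0). Rundc3b differed by -3.49 in leptotene and by -0.77 in spermatogonia, where it was at 11.6, 10.8 and 12.8 in total and 18.9, 21.7 and 21.8 in nascent libraries. Its interaction of -2.72 ± 0.45 did not pass the test (adjusted p 0.233, and 0.0569 without library 2). The median interaction was -0.05 for ribosomal protein genes, 0.03 for replication histones and 0.01 for structured RNAs, beside -0.05 for all genes.

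Against pachytene, 3 genes of 16181 passed, 2 positive (0.0124%) and 1 negative (0.00618%). Rnf7, a RING subunit of cullin ubiquitin ligases, was at 20.5, 72.5, 22.7 and 27.0 in total and 13.5, 31.0, 17.1 and 10.6 in nascent leptotene libraries. Its pachytene values were 0.236 to 0.35 for total and 27.9 to 32.1 for nascent RNA (interaction 5.43 ± 0.47, adjusted p 0.000606). The pachytene libraries of each assay were close together, but they came from 2 animals per assay, with 2 libraries from each. Cdc42ep4, an effector of the GTPase CDC42, was at 4.73, 90.9, 7.13 and 6.09 in total and 1.94, 12.7, 3.02 and 1.61 in nascent leptotene libraries, and at 3.35 to 4.16 and 32.2 to 94.3 in pachytene (4.98 ± 0.69, adjusted p 0.0409). For Rnf7 and Cdc42ep4, leptotene library 2 was higher in total RNA, the reverse of the pachytene libraries, although it ranked genes like pachytene. The cause of this was not tested, and it limits what these pachytene values show. Rundc3b was near parity in pachytene, at 2.99, 3.32, 6.64 and 5.42 in total and 1.59, 3.56, 13.7 and 3.41 in nascent libraries (-3.53 ± 0.45, adjusted p 0.0249). With the block 11 genes were positive (0.068%) and 13 negative (0.0803%).

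The count against pachytene was far larger without library 2, the one that ranked genes like pachytene. Without it 52 genes (0.324%) had a larger and 427 (2.66%) a smaller excess of total RNA in leptotene than in pachytene, and Rnf7 (5.32), Cdc42ep4 (4.68) and Rundc3b (-4.03) were among them. How many of these genes were below the level for testing in leptotene itself was not counted. Without total library 2 alone 359 genes passed, and without any other single library 1 to 10. The median of all genes was -0.37 without library 2 of both assays. With protein-coding scaling and without library 2 the counts were 59 (0.378%) and 17 (0.109%), and the median was 0.08, so the balance of directions rests on the scaling. Of 31 proteasome genes 4 passed, all negative (Psmc3 -1.94, Psmd6 -2.16, Psmd8 -2.72 and Psmd12 -2.28), with a list median of -1.0. Psmd8, a subunit of the regulatory lid, was at 2.57, 1.61 and 6.75 in total leptotene libraries 1, 3 and 4 and at 38.8 to 51.9 in pachytene, while its nascent values were 4.55 to 6.75 and 8.83 to 12.6.

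Of 60 genes of the RNA polymerase II machinery, 4 were negative without library 2, led by Gtf2h1 of the helicase factor TFIIH, and 1 was positive, Tbp, the TATA-binding protein (2.07 ± 0.37, adjusted p 0.0154). Gtf2h1 was at 2.39, 2.51 and 3.73 in total leptotene libraries 1, 3 and 4, at 48.4 in library 2 and at 10.5 to 66.3 in pachytene (-3.79 ± 0.65, adjusted p 0.014). Sun1 was negative (-2.71 ± 0.45, adjusted p 0.012), with -1.80 in leptotene against 0.45 in pachytene when all libraries were used. Of 67 respiratory chain genes 4 were negative and 1 was positive, Ndufs5 (2.45 ± 0.43, adjusted p 0.0151), with a list median of -0.71. Of 63 histone genes 3 passed, all positive, among them Hist1h2ae (2.08 ± 0.42, adjusted p 0.0246). Of 71 ribosomal protein genes 2 passed, Rps15 (3.11 ± 0.68, adjusted p 0.0319) and Rpl29 (2.01 ± 0.35, adjusted p 0.014), both positive. The list median was -0.3, beside -0.37 for all genes. With the block as well, 156 genes (0.973%) were positive and 1390 (8.67%) negative, among them 3 and 2 ribosomal protein genes, 8 and 1 histone genes, 1 and 9 respiratory chain genes and 0 and 7 proteasome genes. Rps7 (-1.53) and Rpl27 (-1.28) were the negative ribosomal protein genes, and Hist1h1t (-1.51) the negative histone gene.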

How the data were processed

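Total RNA and EU-labelled RNA of sorted mouse spermatocytes were sequenced from directional libraries. The submitters' processing notes name STAR 2.5.2a, StringTie and the mm10 build. Which annotation and strand setting were used is not given in the sources used here, so overlapping or antisense genes and near-identical copies are uncertain. The authors deposited 1 FPKM table per assay, without read totals. A search for the value of 1 read put 41.8% to 49.8% of low values in a leptotene library within 0.05 of whole reads, so read counts were not recovered.

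Here 92 spike-in rows were dropped from each, every library was set to a sum of 329916, and log2(value + 1) was tested with limma 3.58.1 (trended eBayes, R 4.3.3) over animals, with Benjamini-Hochberg adjustment over all genes. A run on simulated data had even noise and no library that went against its label, so it does not show how the test behaves here. Shares were compared with an exact permutation test (scipy 1.17.1). Stages were compared by an interaction over 22 libraries, in which single animals gave several stages. Rows were joined (91.2% of them) to GENCODE M21 by symbol for length, strand and sequence. Residuals of same-numbered libraries correlated between assays at 0.44, 0.74, 0.56 and 0.38. Libraries 1 and 4 correlated at 0.44 and 0.4 crosswise too, so their values do not show which numbers pair. The other same-numbered libraries ranked genes like another stage in both assays, so their values do not show a shared animal. Pairing by number is thus an assumption, and a fit with the number as a block is given where it changes a call.

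Members and the 34 gene lists were chosen with earlier results of these data known. Named genes are the 8 largest per direction that were called with and without library 2 and did not overlap, up to 4 called or 2 abundant members per list, and a set always given. Chosen after their values were seen were all rows named Gm, Mir or Scarna, the genes of the interaction without library 2 and of the closing section, and Rn7sk, Rprl2, Rny3, Hist1h2ba, Rplp0, Rpl37, Ndufa2, Psmb1, Psmd8, Gtf2h1, Tex101, Sun1, Smc3, Syce3, Tdrkh, Rnf114, Ncbp2, Gid4, Ttc14, Hnrnph1 and Zfp655. The table corrected by 5S RNA was not used here. Some called genes and a sequence are not reported here.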

Additional observations from a re-analysis of the deposited data

Results flagged for a closer look

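In 256 groups of 4 leptotene libraries (1 gene in 1 assay), 23 had a library whose gap to the next exceeded Dixon's critical value, and chance alone sets about 1 in 20 groups apart. Total library 2, which ranked genes like pachytene, was the library in 14 of them. It was high for Pabpc2 (432), Tdrd6 (468), Ybx2 (311), Mael (232), Cdc42ep4 (90.9), Gtf2h1 (48.4), Ttc14 (15.4), Rundc3b (7.23), Zfp655 (6.63) and Ypel5 (3.68). It was low for Rmrp (2840), Hist1h2bc (7.39), Stra8 (5.13) and Hist1h2ae (4.29), all in rescaled FPKM. Nascent library 2 was high for Pabpc2 (113) and Tdrd6 (115). Nascent library 1 was high for Hnrnph1 (116), Sun1 (23.5) and Sall4 (16.4), nascent library 3 was high for Tmed3 (3.15) and low for Spdya (7.87), nascent library 4 was low for Ncl (9.36), and total library 3 was low for Syce3 (8.19). The difference between assays was unlike that in pachytene, by the interaction test in limma, for Rnf7 (5.43), Cdc42ep4 (4.98) and Rundc3b (-3.53).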

How the results depend on the processing

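All 215 genes called between total and nascent RNA had the same direction in each of the 23 alternatives where they were tested. The alternatives reuse the same libraries, so this is not independent support, and the count moved. It was 706 with the replicate block, 911 with the block and without library 2, 1191 without libraries 2 and 3, 124 with a minimum of 5, 109 with median scaling, 75 with protein-coding scaling and 0 of 32834 without a filter (limma, 3655 at an unadjusted p under 0.05). With 1 library left out it ranged from 4 to 286. Against spermatogonia, where no gene passed, 378 passed without a filter, 10 with libraries as separate samples, 2 with a pseudocount of 5, 4 without library 2 and with protein-coding scaling, 13 without libraries 2 and 3, and 0 to 1 with 1 library left out. Against pachytene, where 3 passed, the count was 479 without library 2, 1546 without it and with the replicate block, 76 without it and with protein-coding scaling, 756 without libraries 2 and 3, 24 with the block, 13 with libraries as separate samples, 216 without a filter, 27 and 5 with pseudocounts of 5 and 0.1, 6 with protein-coding scaling, and 1 to 359 with 1 library left out. The cause was not tested. Of 60 named genes called, 60 had 1 direction under every setting. Read totals are not in the tables used and read counts were not recovered, so no limit of detection is given.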

Other observations

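Tex101 was not the sole surface protein gene of germ cells among those higher in total RNA. Ly6k, a GPI-anchored protein that binds TEX101, was at 70.7, 75.9, 47.0 and 83.5 rescaled FPKM in total libraries 1 to 4 and at 9.0, 14.7, 13.5 and 13 in nascent libraries (2.30 ± 0.34, adjusted p 0.0198, limma). Dpep3, a GPI-anchored dipeptidase of the testis, was at 75.7, 128, 62.8 and 91.0 and at 16.0, 27.6, 24.1 and 15.3 (2.01 ± 0.34, adjusted p 0.0299). The assays did not overlap for either gene. With protein-coding scaling their adjusted p was 0.0538 and 0.0769. Their differences in spermatogonia and pachytene were 1.39 and -0.26 for Ly6k and 1.66 and 2.43 for Dpep3.

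Genes of the secretory route were called too. Ddost, a subunit of the oligosaccharyltransferase, was at 36.6, 33.1, 50.7 and 42.0 in total and at 8.93, 8.26, 11.1 and 4.95 in nascent libraries (2.28 ± 0.37, adjusted p 0.0259, and 0.0744 with protein-coding scaling). The lysosomal enzyme gene Hexa (2.31 ± 0.36, adjusted p 0.0234), the disulfide isomerase gene Pdia6 (1.71 ± 0.32, adjusted p 0.0405, and 0.0507 without library 2) and the cargo receptor gene Tmed3 (1.76 ± 0.35, adjusted p 0.0474) were also higher in total RNA, with no overlap between assays. These genes were picked after their values were seen, so they make no group that was tested.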
